A study of Mus musculus with 9 samples.

Results

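The phase II conjugation enzymes make up 67 of the 54491 genes in a table of mouse colon transcript levels. They were chosen by symbol, as every glutathione S-transferase (GST; 22 genes), microsomal glutathione S-transferase (MGST; 3 genes), UDP-glucuronosyltransferase of families 1 to 3 (UGT; 21 genes) and sulfotransferase (SULT; 21 genes), with 8 symbols that carry a pseudogene suffix left out. Levels are FPKM, which is a fragment count divided by transcript length and library size. Of the 67 genes, 52 were above 0 in at least 1 library, and 38 reached 0.5 FPKM in at least 3 libraries and were tested. Another 15 were listed at 0 in all 9 libraries, and the remaining 14 stayed at or below 0.641 FPKM.

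Colon was taken on postnatal day 98 from C57BL/6 mice that had been divided, at 6 weeks old, into 3 groups of 15. The HFD+Pc libraries (replicates 1, 3 and 4) came from mice given a high-fat diet and gavage, which is dosing by stomach tube, of the gut bacterium Papillibacter cinnamivorans. The HFD libraries (replicates 1, 2 and 4) came from mice on the high-fat diet, and the control libraries (replicates 1, 2 and 3) from the group labelled control, whose diet the labels do not describe further. A gavage is named for the HFD+Pc group alone, so the bacterium and the dosing itself cannot be told apart. The labels give neither the stretch of colon taken nor whether each library came from a separate mouse.

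Phase II enzymes attach a water-soluble group to drugs, plant compounds, hormones, bilirubin and products of lipid oxidation, which can then be carried out of the cell. GSTs join glutathione to reactive compounds, UGTs join glucuronic acid taken from UDP-glucuronate, and SULTs join sulfate taken from the donor PAPS. In the gut lining these enzymes meet food compounds, products of the bacteria and substances returned in bile.

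The HFD libraries formed 1 tight group, at 59.6 to 62.7 on the first principal component, which held 49.9% of the variance, and the other 6 libraries lay between -39.6 and -12.6. Control replicate 1 stood apart on the second component (15.3% of the variance), at 62.9 against -20.9 to 6.43 in the others. It also had a smooth muscle marker sum of 6643 FPKM, against 1261 to 3081 FPKM in the other 8 libraries. It was low in most of the conjugation enzymes, so counts of calls are given with and without it. Sequencing depth relative to that library, read from the steps between low values, was 0.822 to 1.10. Mitochondrial transcripts held 21.6 to 34.8% of the summed FPKM in HFD+Pc, 9.69 to 13.5% in HFD and 16.6 to 25.2% in control. Immunoglobulin genes held 7.59 to 11.1% in HFD and at most 2.79% in the other groups. The groups thus differed in composition, and FPKM does not correct for that. These are bulk samples, in which fewer cells of a type and less RNA per cell cannot be told apart.

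**Figure D1:**
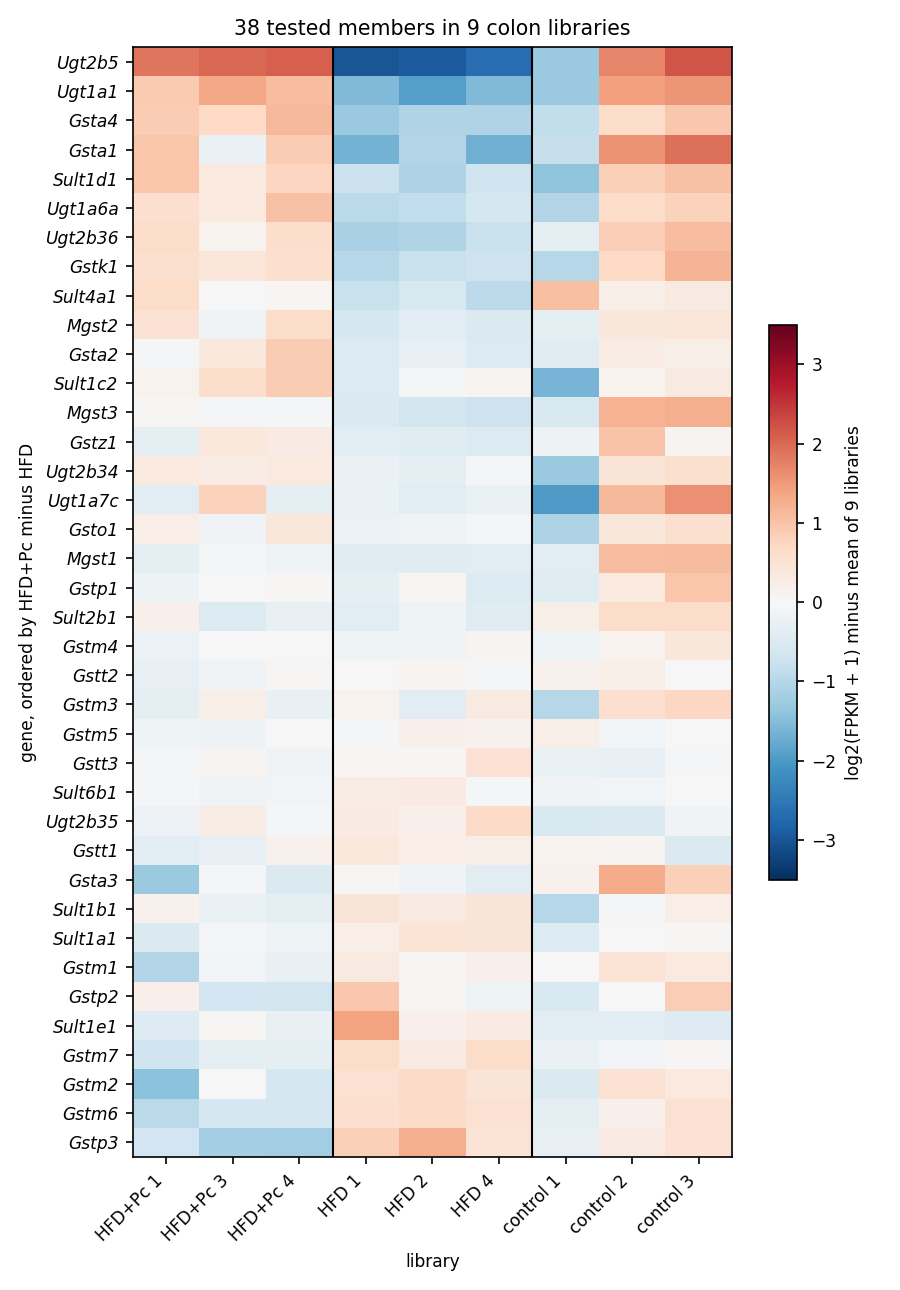
Each row is 1 of the 38 tested conjugation enzymes and each column 1 library, HFD+Pc first, then HFD, then control. The colour is the log2(FPKM + 1) value minus the mean of that gene over the 9 libraries, and rows run from the highest to the lowest difference of HFD+Pc minus HFD. Ugt2b5 was low in all 3 HFD libraries, at 0 to 0.246 FPKM, and Gstp3, at the foot, was lowest in the HFD+Pc libraries, at 1.75 to 2.99 FPKM.

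Each class sum was higher in every HFD+Pc library than in any HFD library, and the ratio of means ran from 1.07 for GST to 1.84 for UGT. The GST gap was narrow, with 631.4 FPKM as the lowest HFD+Pc sum and 630.7 FPKM as the highest HFD sum. The FPKM total of all genes separated as well, at 371286 to 449052 in HFD+Pc and 348690 to 352265 in HFD. The 21 UGT genes together reached 186, 194 and 193 FPKM in HFD+Pc, 102, 94.0 and 116 FPKM in HFD, against 52.2, 211 and 243 FPKM in control. The ratio of means was 1.84 for HFD+Pc over HFD and 0.616 for HFD over control. Control replicate 1 lay below every other library, and the other control libraries lay above all HFD libraries. The 3 MGST genes summed to 372, 338 and 372 FPKM in HFD+Pc, 250.0, 239.6 and 228 FPKM in HFD, against 254, 767 and 796 FPKM in control, again with no overlap between HFD+Pc and HFD. The 21 SULT genes averaged 597 ± 53.1 FPKM in HFD+Pc, 507 ± 22.0 FPKM in HFD, against 559 ± 241 FPKM in control (SD, n = 3 each). The 22 GST genes averaged 672 ± 64.0 FPKM in HFD+Pc, 627 ± 2.89 FPKM in HFD, against 787 ± 296 FPKM in control (SD, n = 3 each). The summed alpha and mu classes lay in opposite orders: the alpha sum averaged 79.7 ± 17.1 FPKM in HFD+Pc against 19.5 ± 2.54 FPKM in HFD, and the mu sum 169 ± 43.8 FPKM in HFD+Pc against 255 ± 15.0 FPKM in HFD (SD, n = 3 each). Rescaling every library to a fixed total (TPM) moved the ratio of HFD+Pc over HFD to 0.934 for GST, where the direction flipped, 1.31 for MGST (1.51 as deposited), 1.60 for UGT and 1.02 for SULT (1.18 as deposited).

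**Figure D2:**
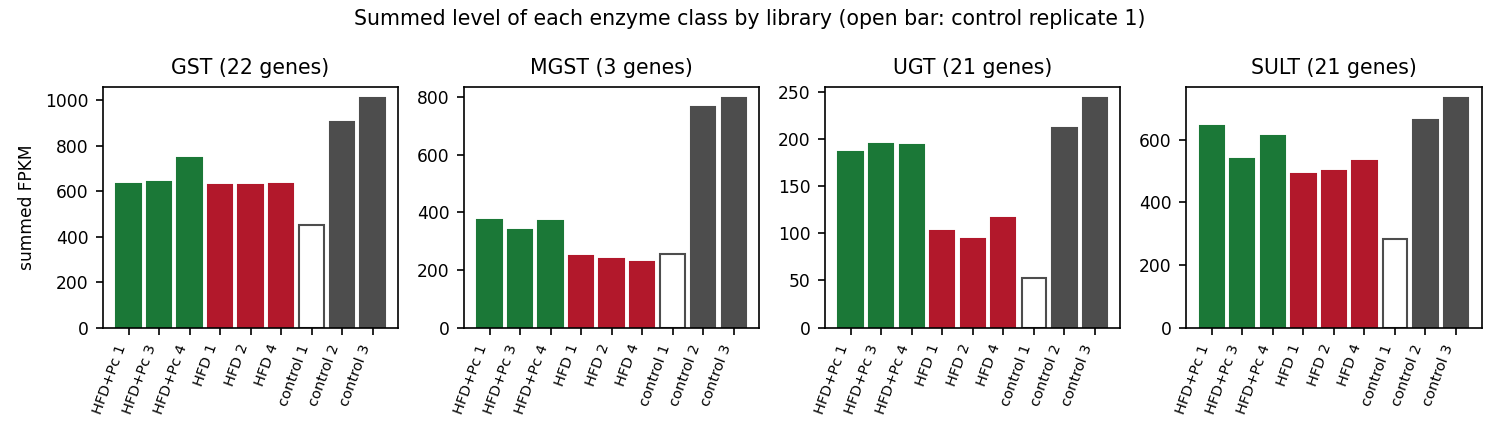
Bars give the summed FPKM of each enzyme class in each of the 9 libraries, HFD+Pc first, then HFD, then control, with an open bar for control replicate 1. The UGT sum lay between 186 and 194 FPKM in the HFD+Pc libraries and between 94.0 and 116 FPKM in the HFD libraries.

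Between HFD+Pc and HFD, 5 of the 38 tested enzymes rose (Ugt2b5, Ugt1a1, Ugt2b36, Gsta4 and Sult4a1) and 3 fell (Gstp3, Gstm6 and Gstm7). A gene was called when its limma p, adjusted over all 17907 tested genes, was below 0.05. Over those genes 4.54% were called higher and 7.60% lower. Among the higher calls, Ugt2b5 and Ugt2b36 reached 0.5 FPKM in no HFD library. They passed the filter only through the other groups, where they were higher, so the higher count is not read against that background. The median log2 difference was 0.16 over the members and -0.01 over all tested genes, and all log2 differences here are on the log2(FPKM + 1) scale. Without control replicate 1, which takes no part in this difference but widens the shared estimate of spread, 13 members were called higher and 6 lower, over a background of 9.41% and 11.0%. With each other library left out in turn, 1 to 7 were called higher and 3 or 4 lower; the higher count was 1 without HFD replicate 1, 2 without HFD replicate 2, HFD replicate 4 or HFD+Pc replicate 4, and 3 without HFD+Pc replicate 1. Under TPM scaling the calls were 4 higher and 5 lower.

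Between HFD and control, 3 of the 38 rose (Gstm7, Sult1e1 and Ugt2b35) and 7 fell (Ugt2b5, Ugt1a1, Ugt2b36, Gsta1, Gsta4, Sult2b1 and Sult4a1), over a background of 10.6% called higher and 9.11% called lower. Ugt2b5 and Ugt2b36 reached 0.5 FPKM in no HFD library, and Sult1e1 reached it only in HFD libraries. Each passed the filter only through groups where it was higher, so these counts are not read against that background. The median was -0.16 over the members (-0.64 without control replicate 1) and -0.001 over all tested genes. Without control replicate 1, 2 members were called higher and 19 lower, over a background of 12.2% and 13.5%. Those 19 took in all 3 MGST genes and 6 of the 7 tested UGT genes. Ugt2b5 and Ugt2b36 were among them, so that count is not read against its background either. With another library left out the lower count was 2 without control replicate 2 or HFD replicate 1, 3 without control replicate 3, HFD replicate 2 or HFD replicate 4, and 4 without HFD+Pc replicate 4. No member was called higher without control replicate 2, HFD replicate 1 or HFD replicate 4. TPM scaling, which moved the median of all genes to 0.24, gave 8 higher and 6 lower, removing mitochondrial and immunoglobulin genes gave 8 and 7 (median of all genes 0.17), and quantile normalization gave 5 and 7. This comparison and the one above share the 3 HFD libraries, so opposite signs in them are not separate pieces of evidence.

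Between HFD+Pc and control, limma called none of the 38 members, over a background of 1.11% of all genes (0.262% higher and 0.843% lower). Without control replicate 1 the calls were 0 higher and 6 lower (Gsta3, Gstm6, Gstp3, Mgst1, Mgst3 and Sult2b1), over a background of 1.82% and 4.91%.

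Of the 7 tested UDP-glucuronosyltransferases, 3 rose and 0 fell in HFD+Pc against HFD (4.54% higher and 7.60% lower over all genes), and 1 rose and 3 fell in HFD against control (10.6% and 9.11%). The 3 that rose and the 3 that fell both included Ugt2b5 and Ugt2b36, which passed the filter only through the other groups. These counts are thus not read against those shares. Leaving out control replicate 1 gave 5 higher and 0 lower in HFD+Pc against HFD, with Ugt1a6a and Ugt2b34 added, and 1 higher and 6 lower in HFD against control, with Ugt1a7c also among the lower ones. Ugt2b5, a liver and gut enzyme of the 2B family that glucuronidates steroids and other lipophilic compounds, stood at 28.3, 31.3 and 32.7 FPKM in HFD+Pc, 0, 0.0600 and 0.246 FPKM in HFD, against 2.25, 25.0 and 35.7 FPKM in control. The HFD libraries lay near or at 0 and overlapped neither of the other groups, and control replicate 1 was the lowest library outside them. Its log2 difference was 4.85 ± 0.75 (SE) in HFD+Pc against HFD (adjusted p = 0.00368) and -3.73 ± 0.75 in HFD against control (adjusted p = 0.00991). Both calls were kept in each of the 19 alternatives per comparison that were run. No HFD library reached 0.5 FPKM, so Ugt2b5 and Ugt2b36 passed the filter on low values only through the other groups. Of the 50-base stretches in Ugt2b5 transcripts, 41.7% also occur in another gene, mostly Ugt2b38, whose own level was at most 0.524 FPKM.

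Ugt1a1, the enzyme that conjugates bilirubin, had 10.3, 14.2 and 11.7 FPKM in HFD+Pc, 1.03, 0.577 and 1.03 FPKM in HFD, against 1.43, 15.0 and 16.3 FPKM in control. Control replicate 1 was close to the HFD libraries, and the other 5 libraries outside HFD were all above 10 FPKM. The log2 difference was 2.80 ± 0.64 (SE) in HFD+Pc against HFD (adjusted p = 0.0238) and -2.23 ± 0.64 in HFD against control (adjusted p = 0.0411). Of the 9 fits that left out a library, the first call held in the 3 that left out a control library and was lost in the other 6 (highest adjusted p = 0.0932, without HFD replicate 2). The second held only without control replicate 1 and was lost in the other 8 (highest adjusted p = 0.122, without control replicate 2). Genes of the UGT1A locus each have their own first exon and share the rest, and 58.2% of the 50-base stretches of Ugt1a1 occur in another gene, so its level depends on how the authors split reads.

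Ugt2b36, a neighbour of Ugt2b5 in the same gene cluster, averaged 2.29 ± 0.622 FPKM in HFD+Pc, 0.200 ± 0.165 FPKM in HFD, against 2.74 ± 1.62 FPKM in control (SD, n = 3 each). Its log2 difference was 1.45 ± 0.34 (SE) in HFD+Pc against HFD (adjusted p = 0.0249) and -1.53 ± 0.34 in HFD against control (adjusted p = 0.0141). Without 1 library the first call was lost in 5 of 9 fits (without any of the HFD libraries, HFD+Pc replicate 1 or HFD+Pc replicate 4; highest adjusted p = 0.0963). The second was lost in 3 of 9 (without control replicate 2, HFD replicate 1 or HFD replicate 2; highest adjusted p = 0.0571).

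Ugt2b35, another 2B enzyme, went the other way in HFD against control, with 5.43, 7.82 and 6.10 FPKM in HFD+Pc, 8.05, 7.35 and 10.6 FPKM in HFD, against 4.11, 4.20 and 5.74 FPKM in control. The HFD libraries were all above the control libraries and overlapped the HFD+Pc libraries. The log2 difference of HFD against control was 0.76 ± 0.18 (SE; adjusted p = 0.0201), a call lost without control replicate 2, HFD replicate 1 or HFD replicate 4 (highest adjusted p = 0.0813). In HFD+Pc against HFD it was -0.37 ± 0.18 (adjusted p = 0.228).

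Ugt2b34, also of the 2B family, was the most abundant UGT, at 128, 119 and 126 FPKM in HFD+Pc, 84.8, 78.8 and 95.7 FPKM in HFD, against 40.2, 138 and 147 FPKM in control. HFD+Pc lay above HFD without overlap, and control replicate 1 was the lowest library. The log2 difference of 0.53 ± 0.42 (SE) was not called (adjusted p = 0.469; 0.012 without control replicate 1). Ugt1a6a, which takes small planar phenols, averaged 4.54 ± 1.36 FPKM in HFD+Pc, 0.985 ± 0.253 FPKM in HFD, against 3.39 ± 2.34 FPKM in control (SD, n = 3 each; adjusted p = 0.061 for HFD+Pc against HFD, 0.00134 without control replicate 1). Ugt1a7c, the remaining tested UGT, ran from 1.37 FPKM in control replicate 1 to 27.2 FPKM in control replicate 3, a spread within 1 group that spanned all other libraries. The other 14 UGT genes were not tested: 6 were listed at 0 throughout, and Ugt2b1 was the highest of the rest at 0.641 FPKM.

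The windows around the transcription starts of Ugt2b5 and Ugt2b35 are shown because these 2B genes lie in 1 cluster and were called in opposite directions in HFD against control, and that of Ugt1a1 because the gene moved in the same directions as Ugt2b5. Each is given 5′ to 3′, mostly upstream of the start with its first 50 transcribed bases, from RefSeq on build GRCm38.p6, at chr5:87140291-87140590 (- strand), chr5:87000610-87000909 (+ strand) and chr1:88211709-88212008 (+ strand). None of the 3 windows holds a motif of those listed further on, so no base is in capitals. Only those motifs were searched, here and in the windows below, and sites of other gut factors such as HNF1 are not marked.
Ugt2b5: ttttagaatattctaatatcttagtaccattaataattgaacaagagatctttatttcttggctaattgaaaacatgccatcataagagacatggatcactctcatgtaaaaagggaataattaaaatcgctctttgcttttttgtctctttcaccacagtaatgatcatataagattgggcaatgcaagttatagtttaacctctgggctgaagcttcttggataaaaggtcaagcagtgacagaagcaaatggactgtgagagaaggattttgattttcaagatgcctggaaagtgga
Ugt2b35: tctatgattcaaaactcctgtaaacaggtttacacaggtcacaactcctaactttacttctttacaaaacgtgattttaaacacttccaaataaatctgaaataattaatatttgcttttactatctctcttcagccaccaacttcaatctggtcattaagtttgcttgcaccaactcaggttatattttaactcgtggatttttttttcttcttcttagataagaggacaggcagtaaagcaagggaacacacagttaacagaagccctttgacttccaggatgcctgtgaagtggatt
Ugt1a1: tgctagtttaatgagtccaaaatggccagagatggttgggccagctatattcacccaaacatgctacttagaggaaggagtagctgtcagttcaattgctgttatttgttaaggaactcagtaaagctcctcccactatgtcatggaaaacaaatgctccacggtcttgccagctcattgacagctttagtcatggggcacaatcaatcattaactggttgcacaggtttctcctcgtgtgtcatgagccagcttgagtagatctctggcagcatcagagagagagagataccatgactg

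**Figure D3:**
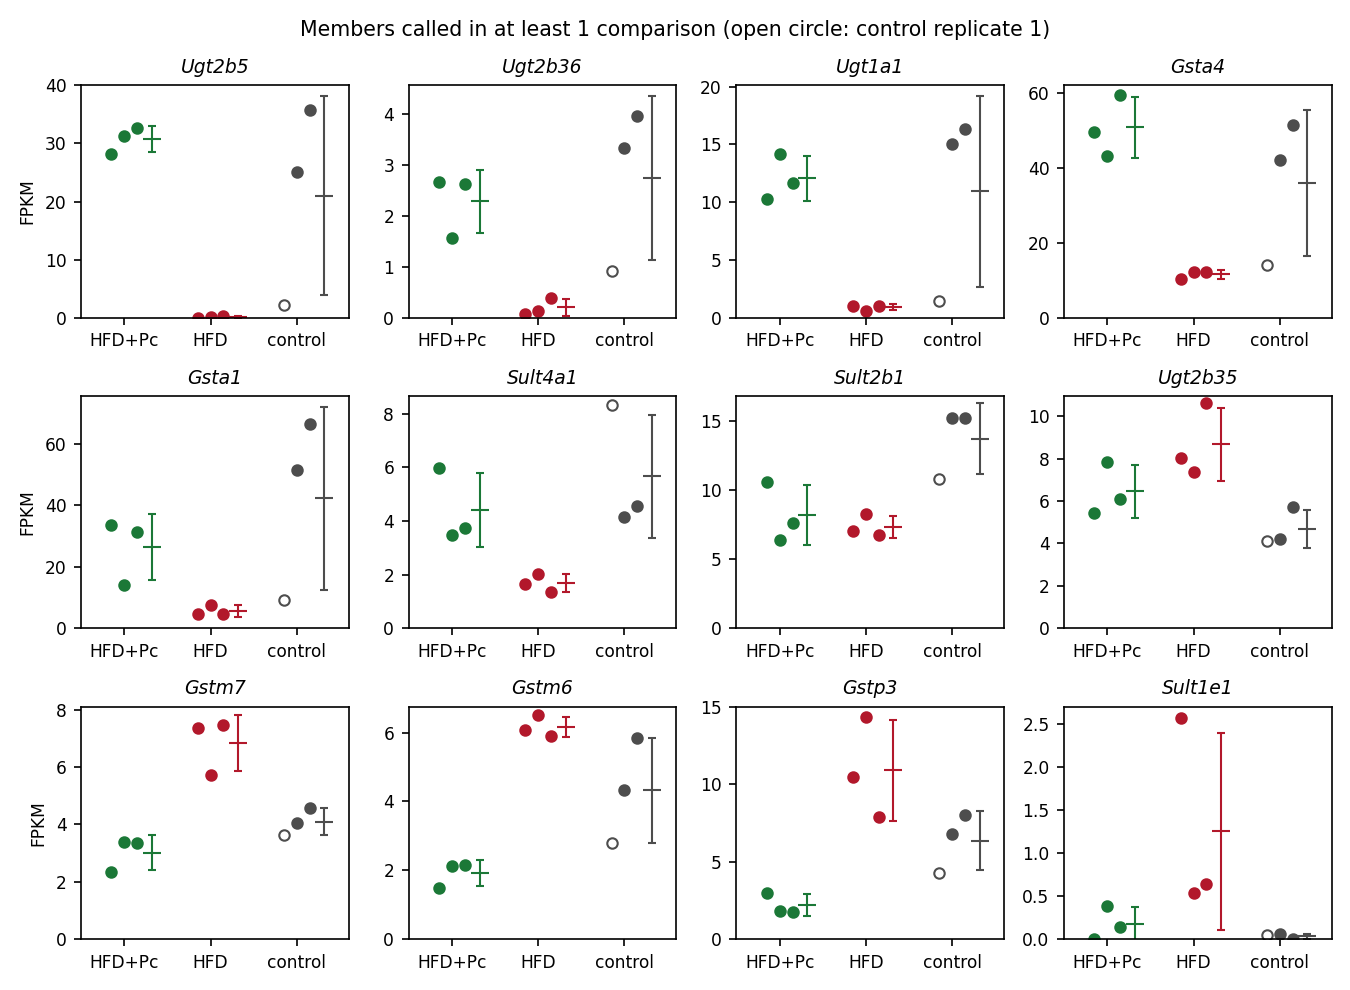
Points are the FPKM of each library for the 12 enzymes called in at least 1 comparison, with bars for the group mean ± SD (n = 3 each), HFD+Pc left, HFD in the middle and control right; the open circle is control replicate 1. Ugt2b5, Ugt1a1, Ugt2b36, Gsta4 and Sult4a1 were higher in every HFD+Pc library than in any HFD library, and Gstp3, Gstm6 and Gstm7 were lower in every one.

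Of the 20 tested cytosolic and mitochondrial GST genes, 1 rose (Gsta4) and 3 fell (Gstp3, Gstm6, Gstm7) in HFD+Pc against HFD, and 1 rose (Gstm7) and 2 fell (Gsta1, Gsta4) in HFD against control. These shares lay near or below those over all genes, which were 4.54% higher and 7.60% lower in the first comparison and 10.6% and 9.11% in the second, except for the 3 lower calls of the first. Leaving out control replicate 1 gave 4 higher (Gsta1, Gsta2, Gsta4, Gstk1) and 4 lower (Gstm2, Gstm6, Gstm7, Gstp3) in HFD+Pc against HFD, and 1 higher (Gstm7) and 7 lower in HFD against control (Gsta1, Gsta3, Gsta4, Gstk1, Gsto1, Gstp1, Gstz1). Gsta4, the alpha class enzyme that clears the lipid peroxidation product 4-hydroxynonenal, had 49.6, 43.2 and 59.5 FPKM in HFD+Pc, 10.2, 12.2 and 12.1 FPKM in HFD, against 14.0, 41.9 and 51.5 FPKM in control. The HFD libraries were the lowest of all, with control replicate 1 just above them. The log2 difference was 2.04 ± 0.40 (SE) in HFD+Pc against HFD (adjusted p = 0.0119), lost without HFD replicate 1 (adjusted p = 0.0553). It was -1.37 ± 0.40 in HFD against control (adjusted p = 0.0437), a call that held only without control replicate 1 and was lost in the other 8 fits (highest adjusted p = 0.127, without control replicate 2 or HFD replicate 1).

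Gsta1, an alpha class enzyme with broad detoxifying and peroxidase activity, had 33.7, 14.1 and 31.4 FPKM in HFD+Pc, 4.57, 7.70 and 4.54 FPKM in HFD, against 9.04, 51.6 and 66.3 FPKM in control. All HFD libraries were below all others, and HFD+Pc replicate 3 was lower than the other libraries of its group. The log2 difference was -2.35 ± 0.66 (SE) in HFD against control (adjusted p = 0.0377), which held in 3 of the 9 fits without a library (without control replicate 1, HFD+Pc replicate 1 or HFD+Pc replicate 3) and was lost in the other 6 (highest adjusted p = 0.119, without HFD replicate 4). In HFD+Pc against HFD it was 1.99 ± 0.66 (adjusted p = 0.0879; 0.005 without control replicate 1). Gsta1 shares 90.5% of its 50-base stretches with other genes, mostly the unnamed model Gm3776, which was listed at 0.673 to 8.62 FPKM, so the level of Gsta1 is uncertain.

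The alpha enzymes Gsta2 and Gsta3 stayed below 10 FPKM. Gsta3, known in mouse liver for conjugating aflatoxin epoxide, averaged 1.58 ± 1.03 FPKM in HFD+Pc, 2.38 ± 0.454 FPKM in HFD, against 5.70 ± 2.55 FPKM in control (SD, n = 3 each). Its log2 difference of HFD+Pc against control was -1.39 ± 0.35 (SE; adjusted p = 0.0851) and -1.69 ± 0.33 without control replicate 1 (adjusted p = 0.0314). Gsta2 averaged 0.925 ± 0.623 FPKM in HFD+Pc, 0.0474 ± 0.0820 FPKM in HFD, against 0.447 ± 0.345 FPKM in control, and no HFD library reached the filter level.

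The pi class enzyme Gstp3 fell in HFD+Pc against HFD, with 2.99, 1.78 and 1.75 FPKM in HFD+Pc, 10.5, 14.4 and 7.86 FPKM in HFD, against 4.27, 6.76 and 8.00 FPKM in control. The HFD+Pc libraries lay below every library of both other groups. The log2 difference was -1.89 ± 0.26 (SE) in HFD+Pc against HFD (adjusted p = 0.00232), a call kept in each of the 19 alternatives. Against control it was -1.20 ± 0.26 (adjusted p = 0.065; 0.027 without control replicate 1). Gstp1, the main pi class enzyme, had 57.5, 65.9 and 67.1 FPKM in HFD+Pc, 52.6, 68.3 and 46.5 FPKM in HFD, against 49.0, 82.6 and 130.0 FPKM in control, and HFD+Pc overlapped HFD. Gstp2 averaged 4.98 ± 2.09 FPKM in HFD+Pc, 8.61 ± 4.19 FPKM in HFD, against 7.68 ± 4.30 FPKM in control (SD, n = 3 each) and was not called. Gstp1 shares 33.7% of its 50-base stretches with Gstp2, whereas Gstp3 shares none with any gene. The left-out pseudogene Gstp-ps was listed at 45.9 to 110 FPKM, and whether reads of Gstp1 were assigned to it is not known.

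Gstm6 and Gstm7, of the mu class, fell in HFD+Pc against HFD. Gstm6 had 1.47, 2.11 and 2.15 FPKM in HFD+Pc, 6.09, 6.50 and 5.92 FPKM in HFD, against 2.78, 4.34 and 5.85 FPKM in control (log2 difference -1.31 ± 0.21, SE; adjusted p = 0.00417 for HFD+Pc against HFD). Gstm7 had 2.32, 3.37 and 3.34 FPKM in HFD+Pc, 7.36, 5.71 and 7.46 FPKM in HFD, against 3.64, 4.04 and 4.58 FPKM in control (log2 difference -0.97 ± 0.15, SE; adjusted p = 0.00437). For both genes the HFD+Pc libraries were below all others, and both calls were kept in each of the 19 alternatives. In HFD against control Gstm7 rose by 0.62 ± 0.15 (log2, SE; adjusted p = 0.0238), lost without control replicate 2, HFD replicate 1 or HFD replicate 4 (highest adjusted p = 0.0971). Gstm1, the abundant mu enzyme, had 60.6, 116 and 103 FPKM in HFD+Pc, 155, 127 and 140.3 FPKM in HFD, against 124, 172 and 157 FPKM in control. All HFD+Pc libraries lay below all HFD libraries, by -0.64 ± 0.25 on the log2 scale (SE), which was not called (adjusted p = 0.136). Gstm2 lay in the same order, at 10.2, 29.5 and 18.8 FPKM in HFD+Pc and 43.0, 46.6 and 40.3 FPKM in HFD (adjusted p = 0.0633; 0.0293 without control replicate 1). Gstm3, Gstm4 and Gstm5 had log2 differences of -0.16, -0.01 and -0.20 in HFD+Pc against HFD.

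The start windows of Gstm7 and Gstp3 are shown because both genes fell in HFD+Pc against HFD and share almost no 50-base stretch with another gene (0.532% and 0). They come from RefSeq on GRCm38.p6, at chr3:107931565-107931864 (- strand), which is 1 of 2 windows of the gene, and chr19:4059398-4059697 (- strand). For Gstm7 the window with a match to a searched motif is shown, and its other window holds none. Capitals mark the core of the antioxidant response element, the site of the stress factor NRF2, in Gstm7 and the AHR core motif in Gstp3.
Gstm7: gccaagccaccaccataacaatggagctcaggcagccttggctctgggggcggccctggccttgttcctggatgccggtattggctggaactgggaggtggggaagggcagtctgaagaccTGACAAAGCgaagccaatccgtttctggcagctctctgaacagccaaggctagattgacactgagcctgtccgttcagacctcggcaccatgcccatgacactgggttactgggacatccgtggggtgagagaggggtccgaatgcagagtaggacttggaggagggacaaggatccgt
Gstp3: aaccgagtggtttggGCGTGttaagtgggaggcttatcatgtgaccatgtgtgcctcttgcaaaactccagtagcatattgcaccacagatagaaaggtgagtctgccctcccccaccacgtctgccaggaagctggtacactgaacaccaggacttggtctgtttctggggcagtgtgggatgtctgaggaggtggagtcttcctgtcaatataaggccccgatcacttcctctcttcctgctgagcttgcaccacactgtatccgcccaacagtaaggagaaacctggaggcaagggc

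The remaining GSTs were not called with all libraries. Gsto1, the omega class enzyme that reduces methylated arsenic and dehydroascorbate, was the most abundant GST, at 269.7, 209 and 300.0 FPKM in HFD+Pc, 199, 208 and 223 FPKM in HFD, against 109, 305 and 335 FPKM in control, with overlapping groups. Gstk1, the kappa class enzyme of mitochondria and peroxisomes, averaged 49.8 ± 3.03 FPKM in HFD+Pc, 18.8 ± 2.05 FPKM in HFD, against 50.5 ± 31.6 FPKM in control (SD, n = 3 each; adjusted p = 0.0942 for HFD+Pc against HFD, 0.000699 without control replicate 1). Gstz1, the zeta class enzyme of tyrosine breakdown, averaged 8.40 ± 2.23 FPKM in HFD+Pc, 5.38 ± 0.227 FPKM in HFD, against 10.3 ± 5.14 FPKM in control. The theta class genes Gstt1, Gstt2 and Gstt3 had log2 differences between -0.44 and -0.13 in HFD+Pc against HFD and between -0.11 and 0.39 in HFD against control. Gsto2 and Gstt4 stayed below the filter.

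Microsomal GSTs were among the most abundant members, and none of the 3 was called with all libraries. Mgst3, a membrane enzyme with glutathione transferase and peroxidase activity, had 253, 234 and 239 FPKM in HFD+Pc, 173, 158 and 148 FPKM in HFD, against 169, 573 and 599 FPKM in control. Control replicate 1 lay among the HFD libraries and the other control libraries were at more than 2 times the level of any other library. Mgst1, found in the endoplasmic reticulum and outer mitochondrial membrane, followed the same layout, with 48.4, 58.1 and 54.6 FPKM in HFD+Pc, 45.3, 44.7 and 46.0 FPKM in HFD, against 46.0, 128 and 132 FPKM in control. In HFD+Pc against control the log2 difference was -0.68 ± 0.42 (SE) for Mgst3 (adjusted p = 0.422) and -1.27 ± 0.12 without control replicate 1 (adjusted p = 0.0108). For Mgst1 it was -0.77 ± 0.35 (adjusted p = 0.264) and -1.26 ± 0.11 without that library (adjusted p = 0.00854). Mgst2, which can also make leukotriene C4, had 71.2, 45.5 and 77.9 FPKM in HFD+Pc, 32.1, 37.2 and 34.4 FPKM in HFD, against 39.0, 64.8 and 66.0 FPKM in control. All HFD libraries were below all others, with an adjusted p of 0.0598 for HFD+Pc against HFD and 0.0979 for HFD against control. Mgst2 and Mgst3 were called higher in HFD+Pc against HFD without control replicate 1, and all 3 genes lower in HFD against control.

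**Figure D4:**
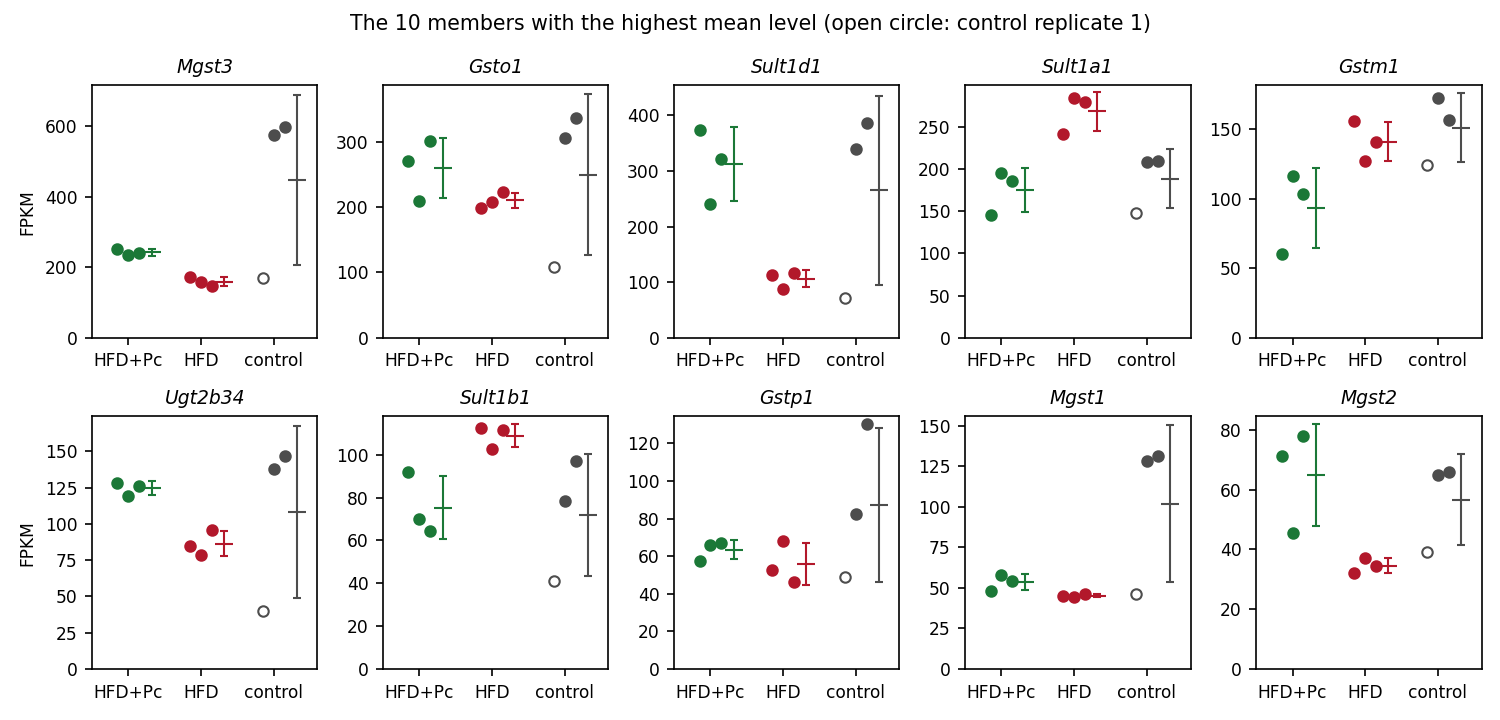
Points are the FPKM of each library for the 10 enzymes with the highest mean over the 9 libraries, with bars for the group mean ± SD (n = 3 each), HFD+Pc left, HFD in the middle and control right; the open circle is control replicate 1. Mgst3 was at 169 FPKM in control replicate 1 and at 573 and 599 FPKM in control replicates 2 and 3.

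Sulfotransferases gave 1 call in HFD+Pc against HFD (Sult4a1, higher) and 3 in HFD against control (Sult1e1 higher, Sult2b1 and Sult4a1 lower) among 8 tested genes. The shares over all genes were 4.54% higher and 7.60% lower in HFD+Pc against HFD, and 10.6% and 9.11% in HFD against control. Without control replicate 1 those shares were 9.41% and 11.0%, and 12.2% and 13.5%. With control replicate 1 left out there were 2 higher (Sult1d1, Sult4a1) and 2 lower calls (Sult1a1, Sult1b1) in HFD+Pc against HFD, and 0 higher and 3 lower (Sult1d1, Sult2b1, Sult4a1) in HFD against control. Sult4a1, known as a brain protein with no established sulfonation activity, had 5.98, 3.46 and 3.74 FPKM in HFD+Pc, 1.63, 2.04 and 1.36 FPKM in HFD, against 8.31, 4.15 and 4.55 FPKM in control. The HFD libraries were below all others, and control replicate 1 was the highest library, unlike for most members. The log2 difference was -1.27 ± 0.25 (SE) in HFD against control (adjusted p = 0.01), kept in each of the 19 alternatives. In HFD+Pc against HFD it was 0.99 ± 0.25 (adjusted p = 0.0379), lost in 5 of 9 fits (without any of the HFD libraries, HFD+Pc replicate 1 or HFD+Pc replicate 4; highest adjusted p = 0.126) and under TPM scaling.

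Sult2b1, which sulfonates cholesterol and other 3-hydroxysteroids, had 10.6, 6.40 and 7.61 FPKM in HFD+Pc, 7.01, 8.27 and 6.74 FPKM in HFD, against 10.8, 15.2 and 15.2 FPKM in control. The control libraries were the 3 highest. The log2 difference of HFD against control was -0.81 ± 0.19 (SE; adjusted p = 0.0209), lost without control replicate 2, control replicate 3, HFD replicate 1 or HFD replicate 4 (highest adjusted p = 0.0833). In HFD+Pc against HFD it was 0.12 ± 0.19, and its sign flipped under TPM scaling (-0.068) and without HFD+Pc replicate 1 (-0.059). Sult1e1, the estrogen sulfotransferase, averaged 0.175 ± 0.196 FPKM in HFD+Pc, 1.25 ± 1.15 FPKM in HFD, against 0.0335 ± 0.0291 FPKM in control (SD, n = 3 each). Only its HFD libraries reached the filter level, so a tested value had to be high there, and its call in HFD against control (log2 difference 1.01 ± 0.30, SE; adjusted p = 0.0459) was lost in all 6 fits without a control or HFD+Pc library (adjusted p = 0.0535 to 0.10). Without any 1 of the HFD libraries it no longer passed the filter.

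The 3 most abundant sulfotransferases, all of family 1, were not called, and they did not share 1 direction. Sult1d1, which in mouse sulfonates catecholamines, had 373, 241 and 321 FPKM in HFD+Pc, 113, 88.6 and 117 FPKM in HFD, against 70.9, 339.8 and 386 FPKM in control. HFD+Pc lay above HFD without overlap, and control replicate 1 was the lowest library (log2 difference of HFD+Pc against HFD 1.54 ± 0.56, SE; adjusted p = 0.116, and 0.00117 without control replicate 1). Sult1a1, the phenol sulfotransferase, lay the other way round, at 145, 195 and 185 FPKM in HFD+Pc, 241, 284 and 278 FPKM in HFD, against 148, 208 and 209.7 FPKM in control. Its HFD libraries were above all others (adjusted p = 0.0694 for HFD+Pc against HFD, 0.0197 without control replicate 1). Sult1b1, which sulfonates thyroid hormones and small phenols, had 91.8, 69.9 and 64.3 FPKM in HFD+Pc, 112, 103 and 111 FPKM in HFD, against 40.9, 78.2 and 96.9 FPKM in control, also highest in HFD (adjusted p = 0.271, and 0.0431 without control replicate 1). Sult1c2 averaged 21.4 ± 5.91 FPKM in HFD+Pc, 12.8 ± 2.68 FPKM in HFD, against 12.4 ± 7.41 FPKM in control (SD, n = 3 each), Sult6b1 stayed below 1 FPKM, and neither was called. Sult2a1 to Sult2a7, known from mouse liver for bile acid and steroid sulfonation, were listed at 0 in all 9 libraries, as were Sult3a1 and Sult3a2.

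The start window of Sult1d1 is shown because this gene had the highest mean level of the sulfotransferases and lay without overlap between HFD+Pc and HFD. It is from RefSeq on GRCm38.p6, at chr5:87568957-87569256 (- strand). Capitals mark, in order, the CDX motif TTTATG and the AHR core on the other strand.
Sult1d1: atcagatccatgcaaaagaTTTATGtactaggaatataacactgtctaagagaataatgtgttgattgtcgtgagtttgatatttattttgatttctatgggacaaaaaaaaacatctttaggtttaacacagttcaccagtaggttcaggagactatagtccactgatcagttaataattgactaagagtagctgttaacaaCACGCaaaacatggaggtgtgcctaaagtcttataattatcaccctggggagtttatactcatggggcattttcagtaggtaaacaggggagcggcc

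Start windows were found for 59 of the 67 members, 71 windows in all, and motifs were searched on both strands. The antioxidant response element core TGACNNNGC occurred in 4 member windows (Gsta3, Gstm5, Gstm7, Mgst1; 5.63%) and in 12.4% of all 32851 windows. The CDX motif TTTATG occurred in 5 member windows (7.04%; 11.9% of all) and TTTACG in 1 (Sult2b1; 3.03% of all). The HNF4 motif CAAAGTCCA occurred in 1 (Sult1b1; 0.475% of all), and the AHR core GCGTG in 14 (19.7%; 32.4% of all). A match is a string of letters and does not show that a factor binds.

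Neighbouring genes lay in the same direction in some clusters and not in others. The adjacent alpha genes Gsta4, Gsta1 and Gsta2 on chromosome 9 had log2 differences of 2.04, 1.99 and 0.83 in HFD+Pc against HFD and of -1.37, -2.35 and -0.44 in HFD against control. The tested UGT1A genes on chromosome 1, which share exons, were all positive in HFD+Pc against HFD (Ugt1a7c 0.33, Ugt1a6a 1.46, Ugt1a1 2.80) and all negative in HFD against control. In the cluster on chromosome 5 the RefSeq order runs Ugt2b34, Ugt2b1, Ugt2b35, Ugt2b36, Ugt2b5, then untested UGT2 genes, then Sult1b1, Sult1d1 and Sult1e1. In HFD against control Ugt2b35 rose while its neighbours Ugt2b36 and Ugt2b5 fell, and Ugt2b34 had a log2 difference of -0.12 ± 0.42 (SE). The mu cluster on chromosome 3 runs Gstm5, Gstm7, Gstm6, Gstm3, Gstm2, Gstm1, Gstm4. The adjacent Gstm7 and Gstm6 fell in HFD+Pc against HFD, between Gstm5 at -0.20 and Gstm3 at -0.16 on the log2 scale.

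**Figure D5:**
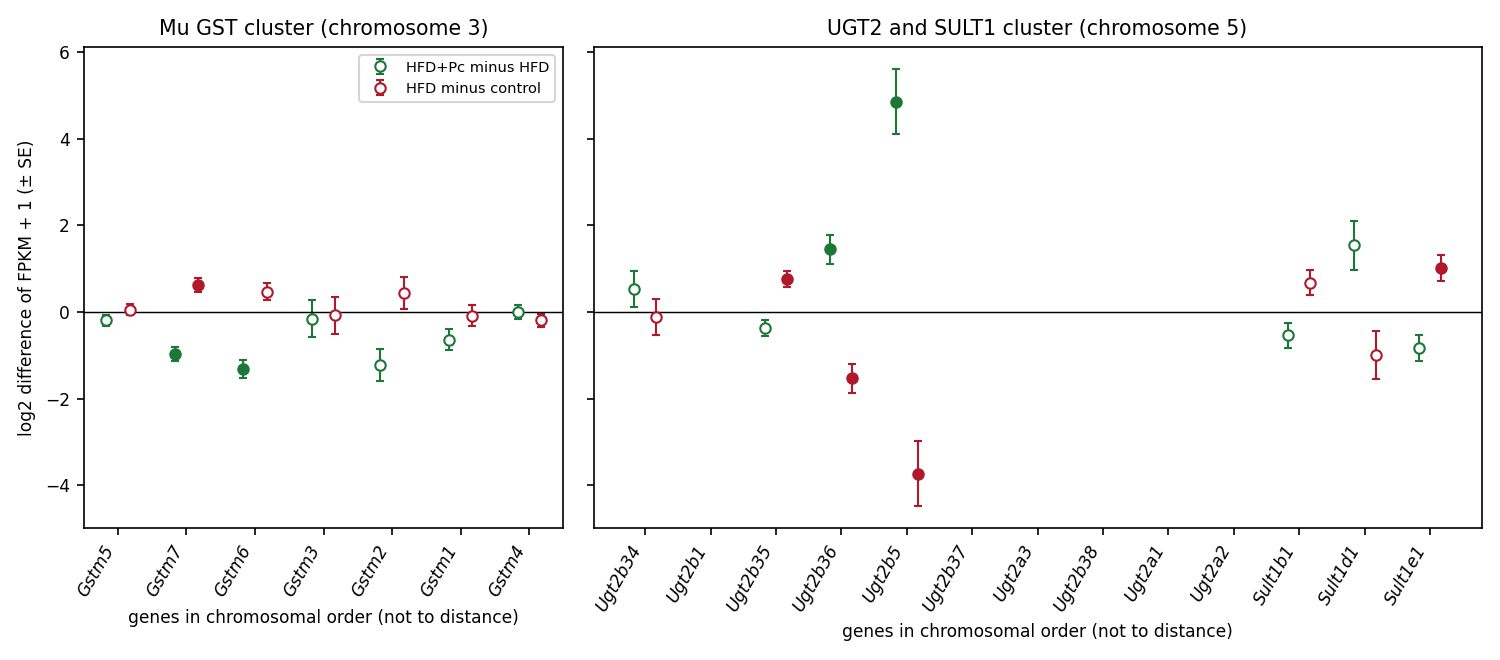
Points are log2 differences of FPKM + 1 with SE for the genes of the mu GST cluster on chromosome 3 (left) and the UGT2 and SULT1 cluster on chromosome 5 (right), in gene order and not to distance. Green is HFD+Pc minus HFD, red is HFD minus control, filled points passed the test, and genes without a point were not tested. Ugt2b5 stands at 4.85 and -3.73, and Ugt2b35, 2 genes away, at -0.37 and 0.76.

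Genes that supply or work beside these enzymes were followed through lists. Of 24 tested genes of glutathione supply and reduction, 1 rose and 1 fell in HFD+Pc against HFD, and 0 rose and 4 fell in HFD against control (Dpep1, Gpx4, Cbs and Gpx7; the last 2 were each called in 5 of the 9 fits without a library). Over all genes 4.54% were called higher and 7.60% lower in the first comparison, and 10.6% and 9.11% in the second. Without control replicate 1 these shares were 9.41% and 11.0%, and 12.2% and 13.5%. The same shares apply to the lists below. The glutathione list gave 7 higher and 2 lower in HFD+Pc against HFD without control replicate 1, and 0 higher and 10 lower in HFD against control. Gclm and Gclc, the subunits of the enzyme that starts glutathione synthesis, were among those 7 and those 10. Dpep1, the dipeptidase that cleaves cysteinylglycine in glutathione breakdown, averaged 178 ± 26.0 FPKM in HFD+Pc, 14.7 ± 2.55 FPKM in HFD, against 177 ± 21.7 FPKM in control (SD, n = 3 each). Its log2 difference was 3.51 ± 0.17 (SE) in HFD+Pc against HFD (adjusted p = 1.45e-05). Ggt6, a gamma-glutamyltransferase, was the gene that fell there (log2 difference -0.60 ± 0.14, SE; adjusted p = 0.0285; called in 4 of the 9 fits without a library).

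Of 11 tested genes of cofactor supply, 1 rose in HFD+Pc against HFD, Slc35d1, which carries UDP-glucuronate into the endoplasmic reticulum where UGTs work. It averaged 21.2 ± 2.55 FPKM in HFD+Pc, 4.03 ± 0.450 FPKM in HFD, against 24.2 ± 14.8 FPKM in control (SD, n = 3 each). The log2 difference was 2.14 ± 0.47 (SE) in HFD+Pc against HFD (adjusted p = 0.02) and -2.07 ± 0.47 in HFD against control (adjusted p = 0.0168). Leaving out 1 library ended the first call in 5 of 9 fits (highest adjusted p = 0.0801) and the second in 4 of 9 (highest 0.0592). Gusb, the lysosomal enzyme that removes glucuronate, was called higher in HFD against control at 9.31 ± 0.0575 FPKM in HFD, against 6.37 ± 0.405 FPKM in control (adjusted p = 0.0456; called in 2 of the 9 fits without a library). Ugdh, which makes UDP-glucuronate, averaged 93.9 ± 7.83 FPKM in HFD+Pc, 27.5 ± 2.62 FPKM in HFD, against 111 ± 75.1 FPKM in control and was not called (adjusted p = 0.0816 for HFD+Pc against HFD). With control replicate 1 left out it was called higher in HFD+Pc against HFD (adjusted p = 0.000135) and lower in HFD against control (adjusted p = 4.68e-05). The cofactor list then gave 4 higher (Ugdh, Papss2, Ugp2, Slc35d1) and 2 lower (Slc26a2, Gusb) in HFD+Pc against HFD, and 0 higher and 4 lower in HFD against control (Ugdh, Papss2, Ugp2, Slc35d1).

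Among 8 tested transporters that export conjugates, 1 rose in HFD+Pc against HFD (Abcc5, log2 difference 0.97 ± 0.18, SE; adjusted p = 0.00976) and 4 fell in HFD against control (Abcb1a, Abcc3, Abcg2 and Abcc5). In the 9 fits without a library, Abcb1a and Abcc5 were called in 8, Abcg2 in 4 and Abcc3 in 1. With control replicate 1 left out, 4 rose (Abcb1a, Abcc3, Abcg2, Abcc5) and 1 fell (Abcc4) in HFD+Pc against HFD, and in HFD against control 1 rose (Abcc4) and the same 4 fell. Abcg2, the urate and drug exporter that also carries sulfated steroids, averaged 10.01 ± 1.93 FPKM in HFD, against 31.5 ± 15.5 FPKM in control (log2 difference -1.43 ± 0.37, SE; adjusted p = 0.0265). Of 12 other conjugating or related enzymes, 2 rose in HFD+Pc against HFD (Nqo1 and Hnmt) and 1 fell in HFD against control (Nqo1); without control replicate 1 these were 4 and 4. Nqo1, a quinone reductase, averaged 28.1 ± 1.47 FPKM in HFD+Pc, 7.0 ± 1.14 FPKM in HFD, against 44.7 ± 29.5 FPKM in control (SD, n = 3 each), and its calls held in 2 and 5 of the 9 fits without a library.

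Of 19 tested NRF2 targets outside the members, 3 rose and 0 fell in HFD+Pc against HFD (Srxn1, Me1 and Nqo1), and 0 rose and 6 fell in HFD against control. Gclc, Gclm, Gsr, Nqo1 and Ephx1 also stand in a list above, so any call of these genes is counted again here. Leaving out control replicate 1 gave 7 higher and 0 lower in HFD+Pc against HFD, and 0 higher and 14 lower in HFD against control. The shares over all genes were then 9.41% higher and 11.0% lower, and 12.2% higher and 13.5% lower. Of the 3 that rose with all libraries, Srxn1 was called in all 9 fits without a library and Me1 in 2. Of the 6 that fell in HFD against control, Srxn1 and Me1 were called in all 9, Osgin1 in 6, Akr1b8 and Nqo1 in 5 and Taldo1 in 1. Srxn1, which repairs oxidised peroxiredoxins, averaged 54.2 ± 6.77 FPKM in HFD+Pc, 27.7 ± 0.573 FPKM in HFD, against 73.8 ± 9.27 FPKM in control (SD, n = 3 each; adjusted p = 0.0031 for HFD+Pc against HFD and 0.00039 for HFD against control). In HFD+Pc against control the NRF2 list gave 0 higher and 1 lower (Osgin1, called in 1 of 9 fits without a library), and the other pathway lists gave no call. That depended on control replicate 1: without it 0 NRF2 targets were called higher and 13 lower in HFD+Pc against control, over a background of 4.91% called lower, among them Nqo1 (adjusted p = 0.0213) and Cbr1 (0.0104), a carbonyl reductase. Calls in that comparison were then 1 higher and 4 lower for glutathione supply, 0 and 3 for cofactor supply, 0 and 3 for efflux, and 1 and 2 for other conjugating enzymes.

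Of 16 tested sensors and gut regulators, 1 rose in HFD+Pc against HFD, and 1 rose (Ahr) and 2 fell (Cdx2 and Rxra) in HFD against control. Leaving out control replicate 1 gave 5 higher and 1 lower in HFD+Pc against HFD, and 1 higher and 7 lower in HFD against control. Cdx2, a homeobox factor of intestinal identity, averaged 68.8 ± 13.3 FPKM in HFD+Pc, 8.10 ± 1.40 FPKM in HFD, against 112 ± 34.8 FPKM in control (SD, n = 3 each). Its log2 difference was 2.93 ± 0.26 (SE; adjusted p = 0.000232) in HFD+Pc against HFD. The nuclear receptor Nr1i2 (PXR), which switches on many of these enzymes, was at 28.4 ± 3.27 FPKM in HFD+Pc, 27.1 ± 1.47 FPKM in HFD, against 35.4 ± 4.85 FPKM in control and was not called in either comparison (in HFD against control, adjusted p = 0.1, and 0.0257 without control replicate 1). Hnf4a, a nuclear receptor of liver and gut (adjusted p = 0.905 for HFD+Pc against HFD), and Nfe2l2, which encodes NRF2 (0.289), were not called there. Their adjusted p without control replicate 1 was 0.855 and 0.0399, and Nfe2l2 was then called higher. In HFD against control neither was called with all libraries, and both were called lower without control replicate 1. The log2 difference there was -0.60 ± 0.17 (SE) for Hnf4a (adjusted p = 0.0323) and -0.67 ± 0.17 for Nfe2l2 (adjusted p = 0.0219). By list, the median log2 difference of HFD+Pc against HFD was 0.31 for glutathione supply, 0.16 for cofactor supply, 0.55 for efflux, 0.36 for other conjugating enzymes, 0.23 for NRF2 targets and 0.05 for sensors, beside -0.01 over all tested genes. In HFD against control the medians were -0.34 for glutathione supply, -0.30 for cofactor supply, -0.59 for efflux, -0.40 for other conjugating enzymes, -0.86 for NRF2 targets and -0.21 for sensors, beside -0.001 over all tested genes. The medians without control replicate 1 were -1.34 for NRF2 targets and -0.46 for sensors.

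Markers of region and of other cells moved with the HFD group. Pan-epithelial markers were present throughout, with a summed level of 5121 to 6365 FPKM in HFD+Pc, 5420.0 to 6197 FPKM in HFD and 5583 to 10302 FPKM in control. Of these 10 genes, 1 was called higher in HFD+Pc against HFD (Krt20) and 2 lower in HFD against control (Krt20, Vil1). Without control replicate 1, 2 were called higher in HFD+Pc against HFD. In that fit 5 were called lower in HFD against control and 6 lower in HFD+Pc against control. The posterior Hox genes, which mark the hind end of the gut, summed to 33.9, 34.3 and 26.6 FPKM in HFD+Pc, 281, 301 and 281 FPKM in HFD, against 71.9, 17.8 and 12.0 FPKM in control, and 4 of 8 tested were called lower in HFD+Pc against HFD. The anterior Hoxb genes summed to 88.2, 62.8 and 100.2 FPKM in HFD+Pc, 5.51, 4.64 and 5.15 FPKM in HFD, against 25.6, 107 and 131 FPKM in control, and 6 of 7 were called higher in HFD+Pc against HFD. These sums split the libraries as Ugt2b5 did, and control replicate 1 lay between the groups in both.

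Colonocyte markers summed to 11783 to 15808 FPKM in HFD+Pc, 1770.4 to 1956 FPKM in HFD and 6243 to 24435 FPKM in control, with control replicate 1 the lowest control library. The list itself went both ways in HFD+Pc against HFD, with 3 of 8 called higher (Car1, Guca2a, Slc9a3), 2 lower (Saa1, Slc26a3) and a median log2 difference of -0.57. Car1 alone, a carbonic anhydrase, reached 10201, 7726 and 9674 FPKM in HFD+Pc and 91.5, 56.0 and 118 FPKM in HFD. Small intestine enterocyte markers summed to 1156 to 1863 FPKM in HFD+Pc, 94.8 to 108 FPKM in HFD and 849 to 3303 FPKM in control, and 2 of 9 tested were called higher in HFD+Pc against HFD (Fabp2, Alpi). B and plasma cell markers summed to 1982 to 6193 FPKM in HFD+Pc, 15083 to 19903 FPKM in HFD and 1307 to 3795 FPKM in control, and 7 of 8 were called lower in HFD+Pc against HFD. Macrophage markers summed to 119 to 177 FPKM in HFD+Pc, 434 to 454 FPKM in HFD and 131 to 159 FPKM in control, with 5 of 5 called lower. The part of region and of these cells in the differences of the conjugation enzymes was not tested.

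Among the other marker lists, goblet cell markers summed to 2542 to 3903 FPKM in HFD+Pc, 4098 to 4652 FPKM in HFD and 2925 to 4949 FPKM in control. Of the 7 genes, 1 was called higher in HFD+Pc against HFD (Muc2) and 2 lower (Clca1, Fcgbp; 4 lower without control replicate 1), and in HFD against control Clca1 was called higher and Muc2 lower. Tuft cell markers summed to 17.2 to 21.8 FPKM in HFD+Pc, 11.4 to 14.4 FPKM in HFD and 16.5 to 21.2 FPKM in control, with 4 of 6 tested called higher in HFD+Pc against HFD. In the 9 fits without a library, Sh2d6 was called in 6, Dclk1 in 5, Trpm5 in 2 and Pou2f3 in 1. Adipocyte markers summed to 55.8 to 172 FPKM in HFD+Pc, 5.96 to 68.2 FPKM in HFD and 38.7 to 562 FPKM in control. Squamous epithelium markers summed to at most 1.40 FPKM in any library. Hepatocyte markers matter here because many members are liver enzymes. They summed to 11.6, 429 and 38.3 FPKM in HFD+Pc, 72.7, 71.0 and 73.3 FPKM in HFD, against 138, 209 and 162 FPKM in control. Of the 9 tested, 0 were called higher and 1 lower (Ttr) in HFD+Pc against HFD. In HFD against control 1 was called higher (Ttr) and 2 lower (Cyp2e1, Apoa2). Albumin (Alb) stood at 251 FPKM in HFD+Pc replicate 3, against 2.47 and 10.2 FPKM in HFD+Pc replicates 1 and 4. The part of liver RNA in the levels of the members was not tested.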

How the data were processed

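Levels came from 1 table of FPKM values per gene that the authors deposited, with 54491 rows and 9 libraries. The submitters' processing notes name HISAT2 2.0.5, an aligner, and build GRCm39. Which tool counted them, and on which annotation, is not given in the sources used here. Gene symbols were matched for 52093 identifiers. How the authors shared reads between near-identical paralogs can change the level of single genes, and 50-base sharing was computed from GENCODE M21 transcripts.

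FPKM values are not counts, so limma 3.58.1 (R 4.3.3) was run on log2(FPKM + 1) with a variance trend and no covariate, in a single fit of all 9 libraries. Testing was limited to 17907 genes that reached 0.5 FPKM in 3 or more libraries. Benjamini-Hochberg adjustment ran over all of them within each comparison, and adjusted p below 0.05 made a call. The log2(FPKM + 1) scale understates changes of low genes. P-values measure the spread between libraries, which may be technical. The fit was tested on simulated data. For each comparison 19 alternatives were run. Values for every library are given for called members that reached a group mean of 5 FPKM and for the 10 most abundant members, and group means for most others. Listed genes are named when called, at most 4 per direction by adjusted p; a few uncalled ones were named after their values were seen. Absolute depth is unknown. The members and lists were chosen with earlier results of these data known. Some planned results are not reported here.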

Additional observations from a re-analysis of the deposited data

How the results depend on the processing

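With all libraries, 5 members were called higher and 3 lower in HFD+Pc against HFD, and 3 higher and 7 lower in HFD against control. The higher count of the first comparison moved to 2 with no filter and to 12 in a fit of its 6 libraries alone, and its lower count to 5 under TPM scaling, with mitochondrial and immunoglobulin genes removed, and in the 6 libraries alone. In HFD against control the higher count moved to 8 under TPM scaling, 5 under quantile normalization and 8 with mitochondrial and immunoglobulin genes removed, and the lower count to 4 in the 6 libraries alone. Leaving out 1 library gave 1 to 13 higher and 3 to 6 lower in HFD+Pc against HFD, 0 to 3 higher and 2 to 19 lower in HFD against control, and 0 higher and 0 to 6 lower in HFD+Pc against control; each highest lower count came without control replicate 1. With a replicate block the counts were 2 higher and 3 lower, 1 higher and 2 lower, and 0 in the third comparison. Only 2 numbers recur in each pair of groups and the deviations of same-numbered libraries correlated at -0.16 to 0.19, so the numbers are not taken to pair the samples. Ratios of class sums (HFD+Pc over HFD) moved under TPM scaling from 1.07 to 0.934 (GST), 1.51 to 1.31 (MGST), 1.84 to 1.60 (UGT) and 1.18 to 1.02 (SULT). Signs reversed for uncalled differences. Over the fits without 1 library the log2 difference ran from -1.21 to 0.16 for Gsta1 in HFD+Pc against control (0.028 without HFD+Pc replicate 3), from -0.059 to 0.27 for Sult2b1 in HFD+Pc against HFD (-0.068 under TPM scaling), from -0.36 to 1.06 for Ugt1a1 in HFD+Pc against control, and from -0.52 to 0.17 for Ugt2b36 in HFD+Pc against control (0.082 with mitochondrial and immunoglobulin genes removed). The cause of these moves was not tested. Pseudocounts of 0.1 and 0.5, a filter at 1 FPKM and a fit without the trend left every count within 1.5 times.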
